A study of Mus musculus with 37 samples.

Results

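The transcripts described here encode 9 feedback inhibitors of inflammatory signalling, chosen by their gene symbols from the 23947 genes of the deposited table: Zfp36, Zfp36l1, Dusp1, Nfkbia, Nfkbiz, Tnfaip3, Ppp1r15a, Socs3 and Il10. All 9 were found in the table, with a value in each of 37 single cells. The donors were age-matched C57BL/6J males given a high-fat diet (fat, carbohydrate and protein supplied 60%, 20% and 20% of the calories), and the labels name the cells macrophages of epididymal white adipose tissue (eWAT). The fat was digested for 30 min with collagenase D or IV, and sorted cells, whose gate the labels do not describe, became libraries on a Fluidigm C1 instrument, which isolates cells in microfluidic chambers. All cells share these labels and no animal is named for any of them, so they form 1 group that counts as 1 sample. Every value below describes these cells, and no p-value was made from them.

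Signals such as bacterial products and tumour necrosis factor activate the transcription factor NF-kB and the MAP kinases in macrophages, and these switch on cytokine and chemokine genes within minutes to hours. The same signals also induce proteins that limit the response. Zfp36 (tristetraprolin) and Zfp36l1 bind AU-rich elements in cytokine mRNAs and promote their decay, Dusp1 removes the activating phosphates from p38 and JNK, and Nfkbia (IkB alpha) holds NF-kB in the cytoplasm. Tnfaip3 (A20) edits ubiquitin chains upstream of NF-kB, while Nfkbiz (IkB zeta) is a nuclear relative of Nfkbia that restrains some NF-kB targets and is needed for others. Ppp1r15a (GADD34) directs a phosphatase to the translation factor eIF2 alpha, and Socs3 blocks some of the cytokine receptors that signal through STAT3. Il10 is a secreted cytokine that dampens macrophage activation and induces Socs3.

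Upstream sequences are shown for 5 of the genes, several of whose transcripts moved together between cells. The letter matches marked in them were shared by some of these genes and not by others. Each line gives the 250 bases before the start site in RefSeq, build GRCm38.p6, 5′ to 3′ on the gene's strand. Capitals mark matches on either strand to the CRE letters TGACGTCA, the AP-1 letters TGANTCA, the STAT letters TTCNNNGAA, the NF-kB consensus and the CArG box of serum response factor.
Zfp36, chr7:28379229-28379478, minus strand: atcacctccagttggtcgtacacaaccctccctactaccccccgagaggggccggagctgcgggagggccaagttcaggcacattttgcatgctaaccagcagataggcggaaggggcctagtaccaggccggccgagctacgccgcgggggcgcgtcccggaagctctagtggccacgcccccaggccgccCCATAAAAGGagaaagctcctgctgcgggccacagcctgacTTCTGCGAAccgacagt
Dusp1, chr17:26508473-26508722, minus strand: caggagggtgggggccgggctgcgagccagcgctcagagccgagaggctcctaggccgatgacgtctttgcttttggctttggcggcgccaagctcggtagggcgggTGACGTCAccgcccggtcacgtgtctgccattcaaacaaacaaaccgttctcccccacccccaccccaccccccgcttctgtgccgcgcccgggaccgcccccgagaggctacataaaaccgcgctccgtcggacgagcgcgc
Ppp1r15a, chr7:45526269-45526518, minus strand: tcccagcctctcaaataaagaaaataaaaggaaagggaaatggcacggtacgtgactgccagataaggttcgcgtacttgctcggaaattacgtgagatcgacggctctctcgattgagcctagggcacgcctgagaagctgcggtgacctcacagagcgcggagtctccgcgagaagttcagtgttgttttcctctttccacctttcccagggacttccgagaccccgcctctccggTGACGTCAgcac
Nfkbia, chr12:55492648-55492897, minus strand: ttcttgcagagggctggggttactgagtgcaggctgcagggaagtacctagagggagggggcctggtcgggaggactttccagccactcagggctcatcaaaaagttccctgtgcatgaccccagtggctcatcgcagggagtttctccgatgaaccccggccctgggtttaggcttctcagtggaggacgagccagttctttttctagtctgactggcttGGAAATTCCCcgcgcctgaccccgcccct
Tnfaip3, chr10:19015411-19015660, minus strand: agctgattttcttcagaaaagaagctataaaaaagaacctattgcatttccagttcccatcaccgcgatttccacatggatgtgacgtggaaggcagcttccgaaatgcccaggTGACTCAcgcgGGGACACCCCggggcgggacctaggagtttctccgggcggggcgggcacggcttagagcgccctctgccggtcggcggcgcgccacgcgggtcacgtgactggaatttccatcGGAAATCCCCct
Dusp1 and Ppp1r15a each held 1 CRE match, beginning at -143 and -12 from the start site, whereas 1.55% of all 32851 upstream windows in the RefSeq table held any. Nfkbia held 1 NF-kB match at -29, and this window of Tnfaip3 held NF-kB matches at -125 and -12 and an AP-1 match at -136, against 7.25% of windows with an NF-kB and 6.75% with an AP-1 match. Zfp36 held a CArG match at -58, found in 1.47% of windows, and a STAT match at -17, found in 7.02%. Among the windows not shown, Socs3 held a STAT match at -154 and Zfp36l1 an AP-1 match at -129, and the other Tnfaip3 window held no match. Windows for 7 of the 9 genes were in the table, and Nfkbiz and Il10 were not. A match is a run of letters and not evidence of binding.

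The unit of the table is FPKM, which corrects fragments for the length of the transcript and the size of the library, so levels of different genes can be set side by side. The summed FPKM still differed between cells, from 225528 through a median of 326230 to 1.84e+06. Detection means a value of at least 1 FPKM. Between 1224 and 3204 genes (median 1824) were detected per cell. The table gives no fragment counts, so what 1 fragment was worth in each cell, a stand-in for relative depth, was read from the steps between low values, and it spanned 98.0-fold. It exceeded 4 times the median in 6 cells (2, 7, 15, 17, 24 and 26), with cell 7 at 4.07 just inside that limit and cell 11 at 3.999 just outside. Of 15 macrophage markers, 9 to 15 were detected in each cell. Cells 7 and 27 stood apart: each held 7 of 8 fibroblast markers, Dcn, a collagen-binding proteoglycan, reached 2582 and 6654 FPKM where the other 35 had no more than 5.03 FPKM, and the summed macrophage markers were at 329 and 140.5 FPKM against at least 8536 FPKM. No cell held 3 or more markers of dendritic, T, B, mast or endothelial cells, neutrophils, eosinophils or adipocytes. Results that rest on cells 7 and 27 are given with and without them.

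The 9 transcripts fell into a broadly present set and a sparse set. Detected in more than 18 cells were Nfkbia, Zfp36, Dusp1, Nfkbiz, Zfp36l1 and Ppp1r15a, 6 of the 9, while 4.03% of all genes in the table, and 9.65% of the genes detected in any cell, were detected as widely. The 9 genes had been chosen with earlier results of these data known, so these shares are a description only. Tnfaip3, Socs3 and Il10 were detected in 16, 14 and 9 cells. Cells contained 3 to 9 of the transcripts with a median of 6, and all 9 were detected in cells 13, 17 and 24, of which 17 and 24 were among those with a high value of 1 fragment. Together the 9 took between 0.00965% (cell 28) and 1.47% (cell 8) of a cell's summed FPKM, with a median of 0.389%.

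**Figure D1:**
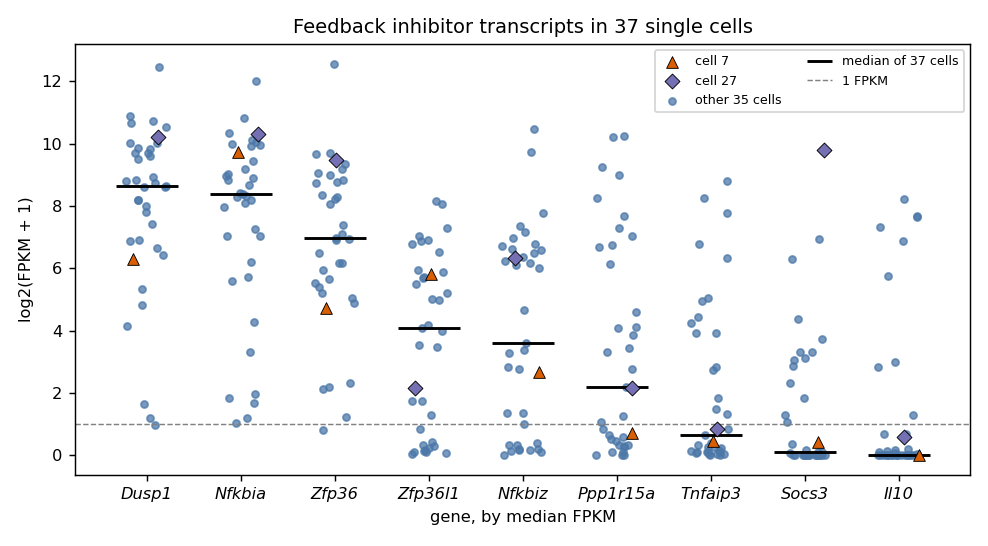
The vertical axis gives log2(FPKM + 1) of the 9 transcripts, ordered by median FPKM, with a point for each of 37 cells. Black bars show medians, a triangle marks cell 7, a diamond cell 27, and a dashed line 1 FPKM. Dusp1, Nfkbia and Zfp36 have few cells near the line, Zfp36l1, Nfkbiz and Ppp1r15a split into low and high cells, and most cells lie at or near 0 for Socs3 and Il10.

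By median level the order was Dusp1 at 397.5, Nfkbia at 337, Zfp36 at 125, Zfp36l1 at 16.1, Nfkbiz at 11.2, Ppp1r15a at 3.59, Tnfaip3 at 0.557, Socs3 at 0.0629 FPKM and Il10 listed at 0. Without cells 7 and 27 the median of Ppp1r15a was 5.79 FPKM. Without the 6 cells with a high value of 1 fragment it was 1.41, that of Tnfaip3 0.306 and that of Zfp36l1 10.6 FPKM. Neighbours in this order had overlapping interquartile ranges in all 8 steps, and in 7 without those 6 cells. Within cells the median log2(FPKM + 1) difference was below its SD in each step, the largest being Zfp36 over Zfp36l1 (2.78, SD 3.55). Over all 37 cells, none of the steps thus exceeded the spread between cells. Compared within cells, Dusp1 was above Nfkbia in 22 of 37, Nfkbia above Zfp36 in 26, and Zfp36 above its relative Zfp36l1 in 32. The nearest neighbours were Zfp36l1 and Nfkbiz, with the former higher in 20 cells and the latter in 17. Dusp1 was the highest of the 9 in 17 cells, Nfkbia in 10, Zfp36 and Ppp1r15a in 4 each and Zfp36l1 in 2.

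The mRNA decay factors differed in spread. Zfp36 ran from 0.751 to 6101 FPKM and was detected in 36 cells (97.3%, exact Clopper-Pearson 95% interval 85.8% to 99.9%, which covers the sampling of cells only). Its highest value, in cell 26, stood far above the next, 834 FPKM in cell 34. Cell 26 also had a high FPKM sum, but on values rescaled to an equal sum in every cell (TPM) it was again the highest, at 5010. Low values were few, with 5 cells under 10 FPKM (cells 1, 4, 5, 12 and 28).

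Zfp36l1 was detected in 26 cells (70.3%, 53.0% to 84.1%), from 0.0317 FPKM through a median of 16.1 to 283.7 FPKM in cell 30. It was the transcript most related to the value of 1 fragment (rho 0.49), and it was detected in 64.5% of cells without the 6 with high values. The highest cells were not those of Zfp36. Cell 12 had the lowest Zfp36 of all, 0.751 FPKM, beside the second highest Zfp36l1, 266 FPKM, and cells 0, 29 and 35 had Zfp36 at 424, 509.5 and 266 FPKM with Zfp36l1 at or under 0.128 FPKM. Over all cells the relatives were weakly related (rho 0.18). Of 10 other genes of mRNA decay and AU-rich binding, 2 were detected in more than 18 cells: Khsrp, an RNA-binding decay factor, in 33 (median 6.52 FPKM), and Zfp36l2, another member of the Zfp36 family, in 23 at 3.31 FPKM. Elavl1, an RNA stabiliser, was found in 15 cells and Cnot1, the scaffold of the deadenylase complex, in 10.

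Dusp1 was the most abundant of the 9. Its values ran from 0.953 FPKM in cell 18 through a median of 397.5 to 5608 FPKM in cell 2, and 8 cells exceeded 1000 FPKM. In the median cell it lay at the 95.9th percentile of the genes above 0. On the TPM scale the highest was cell 31, at 7021, so the place of cell 2 depends on its large FPKM sum. Only cells 3, 12 and 18 were under 10 FPKM, and cell 18 at the same time held Nfkbia at 1010 FPKM. Among 10 other MAP kinase phosphatases, Dusp3 was detected in 33 cells (median 20.4 FPKM), Dusp6 in 14, Dusp7 in 11 and Dusp2 in 8, while Dusp4 and Dusp16 reached 1 FPKM in none. None of the 13 kinases listed was detected in more than 18 cells. Mapk3 (ERK1) was found in 18, Mapk14 (p38 alpha) in 16, Map2k1 in 15 and Mapkapk2, the kinase that phosphorylates Zfp36, in 13.

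Nfkbia was present in every cell, from 1.05 FPKM in cell 12 to 4133 FPKM in cell 9, with a median of 337 FPKM. The upper end held 7 cells above 1000 FPKM, and at the low end 6 cells (1, 3, 4, 11, 12 and 28) lay between 1.05 and 8.91 FPKM. Cells 7 and 27 were not low, at 851 and 1269 FPKM. The share of cells fell from 100% to 83.8% when 10 FPKM was required.

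Nfkbiz was detected in 27 cells (73.0%, 55.9% to 86.2%), from 0 in cell 12 through a median of 11.2 to 1416 FPKM in cell 15. Its values split widely, with 10 cells under 1 FPKM, 19 at 10 FPKM or more and only cells 8, 15 and 26 above 200 FPKM. Tnfaip3 was sparser, in 16 cells (43.2%, 27.1% to 60.5%), with a median of 0.557 FPKM and 444 FPKM in cell 15. Its next cells were 31 at 304, 14 at 220 and 10 at 109 FPKM, and on the TPM scale cell 31 was first at 1115. Cell 15 thus held the highest value of both NF-kB inhibitors, and it also had the highest Nfkbid (796 FPKM), another nuclear IkB, and Tnip3 (76.1 FPKM), a partner of A20. Its value of 1 fragment was 4.80 times the median.

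Other genes around NF-kB were detected less widely than Nfkbia. Of 12 further IkB proteins and A20 partners, Tax1bp1 in 22 cells was the only gene in more than 18, with Nfkbid and Trafd1 in 15 each and Tnip2 in 11. Of 19 subunits and activators, Irak4 was detected in 22 cells, Ikbkb in 17, Irak1 in 16 and Nfkb1, the p50 precursor, in 15. Rela, the p65 subunit, was found in 6 and Ikbkg in none. A gene below 1 FPKM in a cell was counted as not detected there, which does not show that its transcript was absent.

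Ppp1r15a was among the most uneven transcripts, with an SD of 3.40 on the log2(FPKM + 1) scale, the largest of the 9. It was detected in 22 cells (59.5%, 42.1% to 75.2%), from 0 through a median of 3.59 to 1217 FPKM in cell 8. Cells 32, 29 and 9 followed at 1179, 606 and 506 FPKM, and 10 cells in all were at 100 FPKM or more, while 22 cells lay under 10 FPKM. It was the top transcript of the 9 in cells 8, 28, 29 and 32. Its constitutive relative Ppp1r15b was detected in 14 cells. The catalytic subunits Ppp1ca and Ppp1cb were detected in 30 and 21 cells, and Atf4, the transcription factor translated when eIF2 alpha is phosphorylated, in 21 at a median of 8.85 FPKM. Ddit3 (CHOP), which acts downstream of Atf4, was found in 11 cells and was highest in cell 12, at 2281 FPKM, where Ppp1r15a was 0.583 FPKM.

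Socs3 was detected in 14 cells (37.8%, 22.5% to 55.2%) and listed at 0 in 17. The highest value was 890 FPKM in cell 27, a cell with fibroblast markers, which alone made up 75.9% of the summed Socs3 of all cells. Without cells 7 and 27 the highest was 122 FPKM in cell 0, followed by 78.6 in cell 17, 20.0 in cell 23 and 12.2 in cell 13, and the other detected values lay between 1.09 and 8.84 FPKM. These 4 were the only ones of the 35 cells at 10 FPKM or more. Of the 9 other genes of this family list, Pias1 was detected in 10 cells, Socs6 in 4, Socs5 and Socs7 in 3 each, Cish in 2, and Socs1 and Socs2 in none.

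Il10 was the sparsest, detected in 9 cells (24.3%, 11.8% to 41.2%) and listed at 0 in 19. Its values fell into separate levels: 300.9, 204, 200.3, 159, 116 and 53.5 FPKM in cells 2, 17, 19, 20, 31 and 35, and then 6.94, 6.20 and 1.42 FPKM in cells 13, 24 and 33. No cell lay between 6.94 and 53.5 FPKM. On the TPM scale cell 19 was first at 694, and cell 2, at 270, was also below cells 17, 20 and 31. The place of cell 2 thus depends on its large FPKM sum. Of these 9 cells, 3 (2, 17 and 24) had a high value of 1 fragment, and without the 6 such cells the share was 19.4%. Neither cell with fibroblast markers reached 1 FPKM.

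Of 12 genes of the interleukin 10 receptor and the STAT3 pathway, 7 were detected in more cells than Il10 and 5 in fewer. Jak1 was detected in 28 cells, Il10rb in 25 and Stat3 in 21, while Il10ra, the chain specific to this receptor, was detected in 12. The 5 in fewer cells were Etv3 and Nfil3, in 6 each, and Tyk2, Il6st and Il1rn, in 4 each. Il10 and Socs3 coincided in 5 cells, where multiplying their shares gives 3.41. That number was 9 against 6.43 at 0.1 FPKM and 3 against 2.16 at 5 FPKM. The 5 cells at 1 FPKM were 2, 13, 17, 24 and 33, and of these 2, 17 and 24 had a high value of 1 fragment. In cell 33 both transcripts were close to the limit, Il10 at 1.42 and Socs3 at 1.09 FPKM. Socs3 in the 6 cells highest for Il10 was 7.41 FPKM in cell 2 and 78.6 FPKM in cell 17, and at most 0.0825 FPKM in cells 19, 20, 31 and 35. So high Il10 and detected Socs3 coincided in some cells and not in others. The value of 1 fragment was 17.4 and 9.30 times the median in cells 2 and 17. It was 2.20, 0.619, 0.705 and 1 times the median in cells 19, 20, 31 and 35. The part of depth in this difference and in the joint detection was not tested. Il10 was detected together with Tnf in 3 cells (2.19 from the shares) and with Il1b in 2 (1.95). Socs3 was detected with Tnf in 5 (3.41) and with Il1b in 3 (3.03). Counts this small, that of Il10 with Socs3 included, cannot show whether detection of 1 gene went with that of another.

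**Figure D2:**
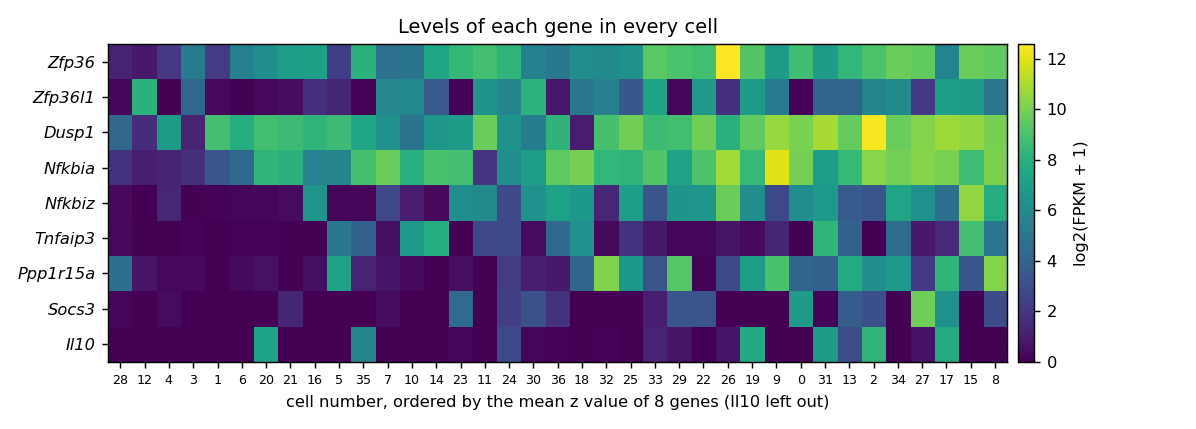
Levels of the 9 transcripts in every cell, as log2(FPKM + 1) by colour, with cells along the horizontal axis ordered by the mean z value of 8 transcripts (Il10 left out). Cells 28, 12, 4, 3, 1 and 6 at the left hold little of most transcripts, and cells 8 and 15 lie at the right.

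Several of the broadly present transcripts were high in the same cells. Spearman rho was computed over the 37 cells for all 36 pairs, and 3 reached 0.5: Zfp36 with Nfkbiz (0.62), with Nfkbia (0.57) and with Dusp1 (0.52). Of the 2850078 pairs formed by the 2388 genes detected in at least 10 cells, 0.278% reached 0.5. The median over the member pairs was 0.28, against 0.036 over all those gene pairs, and 33 of the 36 were above 0, as were 58.1% of all gene pairs. That median was 0.34 in cells 0 to 19 and 0.14 in cells 20 to 36, and over the 26 pairs with at least 10 cells in which both genes were detected it was 0.056 within those cells, against 0.28 for the same 26 pairs over all cells. Within such cells Zfp36 stayed at 0.53 with Nfkbia, 0.48 with Nfkbiz and 0.48 with Dusp1, and Dusp1 was at 0.51 with Nfkbia. These values are descriptions of 37 cells whose values share 1 scaling, for genes chosen with earlier results of these data known.

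The pairs with Zfp36 were not equally even. For Zfp36 and Nfkbiz, Pearson r on the log2(FPKM + 1) scale was 0.65, and 0.61 once the 2 cells most distant from the Zfp36 median were left out. For Zfp36 and Nfkbia the values were 0.64 and 0.52, and for Zfp36 and Dusp1 0.50 and 0.35. Splitting the cells by their label number into 0 to 19 and 20 to 36, a division that the labels do not name as a batch, gave rho of 0.78 and 0.36 for Nfkbiz, 0.53 and 0.59 for Nfkbia and 0.61 and 0.28 for Dusp1. In even- and odd-numbered cells rho was 0.65 and 0.60 for Nfkbiz, 0.79 and 0.30 for Nfkbia and 0.65 and 0.18 for Dusp1. Without cells 7 and 27 the rho of the 3 pairs was 0.61, 0.59 and 0.47. In the 19 cells with Nfkbiz at 10 FPKM or more the lowest Zfp36 was 32.1 FPKM. Zfp36 was lower in 7 cells, and 11 cells with Zfp36 as high had less Nfkbiz.

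Among the other broadly present transcripts, Nfkbia and Nfkbiz were related at 0.49, Dusp1 at 0.43 with Nfkbia and 0.42 with Nfkbiz, and Ppp1r15a at 0.42 with both Nfkbia and Dusp1. Within cells where both genes were detected, Nfkbiz was at 0.20 with Nfkbia and 0.28 with Dusp1. Ppp1r15a was there at 0.07 with Nfkbia and 0.33 with Dusp1, and Dusp1 at 0.51 with Nfkbia. In odd-numbered cells Nfkbia was at 0.17 with Nfkbiz, 0.19 with Dusp1 and 0.34 with Ppp1r15a. Dusp1 in those cells was at 0.60 with Nfkbiz and 0.44 with Ppp1r15a. The relation of Ppp1r15a with Nfkbia was 0.69 in cells 0 to 19 and -0.12 in cells 20 to 36. Dusp1 and Ppp1r15a, whose printed upstream windows each carry a CRE match, were at 0.42, and Nfkbia and Tnfaip3, which each carry an NF-kB match, at 0.24. Zfp36l1 and Tnfaip3, with an AP-1 match each, were at 0.33, and Zfp36 and Socs3, with a STAT match each, at 0.20. Zfp36 shares no match with Nfkbia (0.57) or Dusp1 (0.52). A relation between matches and rho was not tested. Tnfaip3 had its highest value with Zfp36l1 (0.33) and ran opposite to Socs3 (-0.24), the lowest of the 36. Il10 had its highest value with Socs3 (0.38), but r on the log2(FPKM + 1) scale was 0.11 and rho was 0.49 and -0.094 in cells 0 to 19 and 20 to 36.

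**Figure D3:**
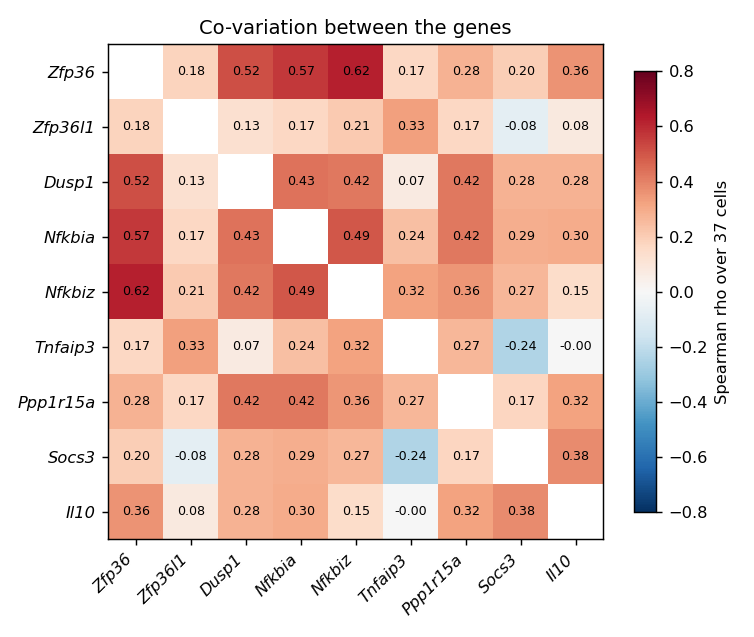
Spearman rho over 37 cells for each pair of the 9 transcripts, by colour and number. Zfp36, Dusp1, Nfkbia and Nfkbiz have values from 0.42 to 0.62 with each other, and Zfp36l1, Tnfaip3, Socs3 and Il10 have lower values with most others.

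Cells 28, 12, 4, 3, 1 and 6 had the lowest mean z value (each gene's log2(FPKM + 1) centred and scaled over cells) of the 8 transcripts detected in at least 10 cells, between -1.09 and -0.81. Since these transcripts chose the cells, their low values there are no finding. Their Nfkbia lay between 1.05 and 18.4 FPKM and their Nfkbiz at or under 1.58 FPKM, but each cell held at least 1 other transcript above 10 FPKM. Dusp1 was at 454 FPKM in cell 1, 221 FPKM in cell 6 and 116 FPKM in cell 4, and Zfp36 was at 41.7 FPKM in cell 6 and 36.1 FPKM in cell 3. Zfp36l1 was at 266 FPKM in cell 12 and 17.3 FPKM in cell 3, and cell 28 held Ppp1r15a at 23.4 FPKM and Dusp1 at 16.7 FPKM. The number of genes detected in these 6 cells ran from 1401 to 2769 and the value of 1 fragment from 0.676 to 2.38 times the median, so none was among those with a high value. Over all cells the mean z value was related to the number of genes detected at rho -0.26 and to the value of 1 fragment at 0.18. The part of these measures in the order of the cells was not tested.

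The genes most like each transcript were taken as the 3 highest by rho among the 2388 genes, members left out. The counts and shares at 0.5 or more were instead taken over the other 2387 genes, members included. Zfp36 was thus counted with Nfkbia, Dusp1 and Nfkbiz, and each of those with Zfp36. Nfkbia was followed by Cxcl1, a neutrophil-attracting chemokine and NF-kB target (0.73), Ifrd1 (0.56) and Klf4 (0.52), and 4 genes, 0.168% of those compared, reached 0.5 with it. In the 17 cells with Cxcl1 at 10 FPKM or more the lowest Nfkbia was 72.3 FPKM. Nfkbia was lower in 9 cells, and 11 cells with Nfkbia as high had less Cxcl1. The relation of Nfkbia and Cxcl1 was 0.70 without cells 7 and 27, which held high Cxcl1, and 0.81 and 0.48 in cells 0 to 19 and 20 to 36. Zfp36 was followed by Fos (0.60), an AP-1 subunit, Snhg9 (0.54) and Npc1 (0.51), with 0.335% of genes at 0.5 or more. Dusp1 was followed by Dusp7 (0.54), Cxcl1 (0.52) and Cxcl2 (0.51), with 0.168%.

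Nfkbiz was followed by Mgl2 (0.66), a lectin of alternatively activated macrophages, Fosb (0.55), an AP-1 subunit, and the kinase Wnk1 (0.52), with 0.251% of genes at 0.5 or more. Mgl2 has a close relative in Clec10a, and reads shared between them would make its value uncertain. Socs3 was followed by the immediate early gene Ier2 (0.66), the tetraspanin Cd81 (0.58) and Ahnak (0.55), with 0.168%. In the 5 cells with Socs3 at 10 FPKM or more the lowest Ier2 was 16.7 FPKM, and 6 cells with Ier2 as high had less Socs3. The relation was 0.63 without cells 7 and 27. For Tnfaip3 the genes were Insig1 (0.58), a regulator of sterol synthesis, H2-DMa (0.55), of MHC class II peptide loading, and Tmem126a (0.54), with 0.209%. For Zfp36l1 they were Plbd2 (0.56), Ms4a6d (0.49) and Camk1d (0.47), and for Ppp1r15a Ang (0.56), Zfhx3 (0.49) and Pde4b (0.46), with 0.0419% of genes at 0.5 or more in each case. Ang belongs to a family of similar genes, so its value is uncertain. Pearson r on the log2(FPKM + 1) scale kept 12 of these 24 places.

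**Figure D4:**
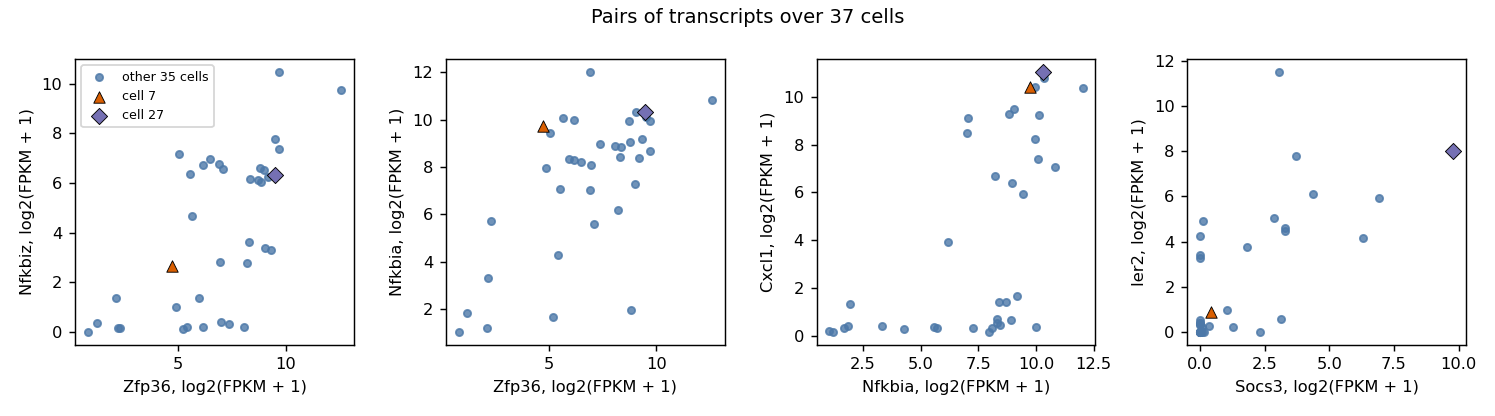
Levels of 4 pairs of transcripts in 37 cells, both axes as log2(FPKM + 1), where a triangle is cell 7 and a diamond cell 27. The lowest Zfp36 in the 19 cells with Nfkbiz at 10 FPKM or more is 32.1 FPKM. Lower Zfp36 is seen in 7 cells, and 11 cells with Zfp36 as high have less Nfkbiz. The lowest Nfkbia in the 17 cells with Cxcl1 at 10 FPKM or more is 72.3 FPKM. Lower Nfkbia is seen in 9 cells, and 11 cells with Nfkbia as high have less Cxcl1.

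Genes induced by the same signals were compared through their rho with the mean z value of the 8 transcripts. Over 2380 other genes the median was -0.08, and 0.798% reached 0.4. Of 20 immediate early genes, 12 were detected in more than 18 cells, and the 15 that could be compared had a median of 0.30, with 5 at 0.4 or more. These were Fosb (0.61), the transcription factor Egr1 (0.61), Klf4 (0.49), Ier2 (0.48) and Fos (0.48), while Junb, detected in 36 cells, was at 0.37, Klf6 at 0.396, Atf3 at 0.24 and Klf2 lowest at 0.10. All 15 were above 0, as were 33.2% of the 2380 genes. Without the 6 cells with a high value of 1 fragment Klf2 was at 0.42 and no longer the lowest, and without cells 7 and 27 Klf6 was at 0.44 and Junb at 0.40, so the count at 0.4 or more depends on these cells. All the cells had been through digestion and sorting, whose part in these levels was not tested.

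Of 19 inflammatory targets, 5 were detected in more than 18 cells, 6 in 5 to 18, 5 in fewer and 3 in none. Cxcl1 (0.67) and Cxcl2 (0.43) reached 0.4 with the mean z value of the inhibitors, Ccl2 and Ccl4 followed at 0.32 and 0.27, and Ccl3 was lowest at -0.10. Without the 6 cells with a high value of 1 fragment Cxcl1 was at 0.72, Cxcl2 at 0.32 and Ccl3 at 0.13, with Icam1 then lowest at 0.02. Ccl7 (0.18), Ier3 (0.17) and Icam1 (0.02) completed the 8 compared. Tnf was detected in 9 cells, Nlrp3 in 9, Il1b in 8, Il6 in 4, Cxcl10 and Cd40 in 3 each and Il1a and Cxcl3 in 1 each, too few to compare, and Il12b, Ptgs2 and Nos2 in none (for 0 of 37 cells, a limit of 3 counts is 8.11% and the exact Clopper-Pearson upper bound 9.49%). The 5 most widely detected targets were thus 4 chemokines and Ier3. By single member, Cxcl1 was at 0.50 to 0.73 with Zfp36, Dusp1, Nfkbia and Nfkbiz, but 0.13 with Tnfaip3.

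Components of the pathways did not move with the inhibitors to the same degree. The medians of rho were 0.13 for the 3 MAP kinase phosphatases compared, with Dusp7 highest (0.31) and Dusp3 lowest (0.12), and 0.07 for the 7 genes of the interleukin 10 receptor and STAT3 list, from Jak1 (-0.13) to Sbno2 (0.26). They were -0.03 for the 4 IkB and A20 partners, from Tnip2 (-0.24) to Nfkbid (0.25), and -0.04 for the 9 NF-kB subunits and activators, from Nfkb1 (-0.15) to Rel (0.18) and Ikbkb (0.18). The 4 mRNA decay genes had a median of -0.07, the 6 MAP kinases -0.09, and the 5 eIF2 alpha genes -0.19, from Ppp1cb (-0.25) to Atf4 (0.29). Pias1, the only comparable gene of the SOCS list, was at 0.02. The 9 housekeeping genes had a median of -0.19, from Rpl3 (-0.37) to Gapdh (-0.04). No gene of these lists reached 0.4.

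**Figure D5:**
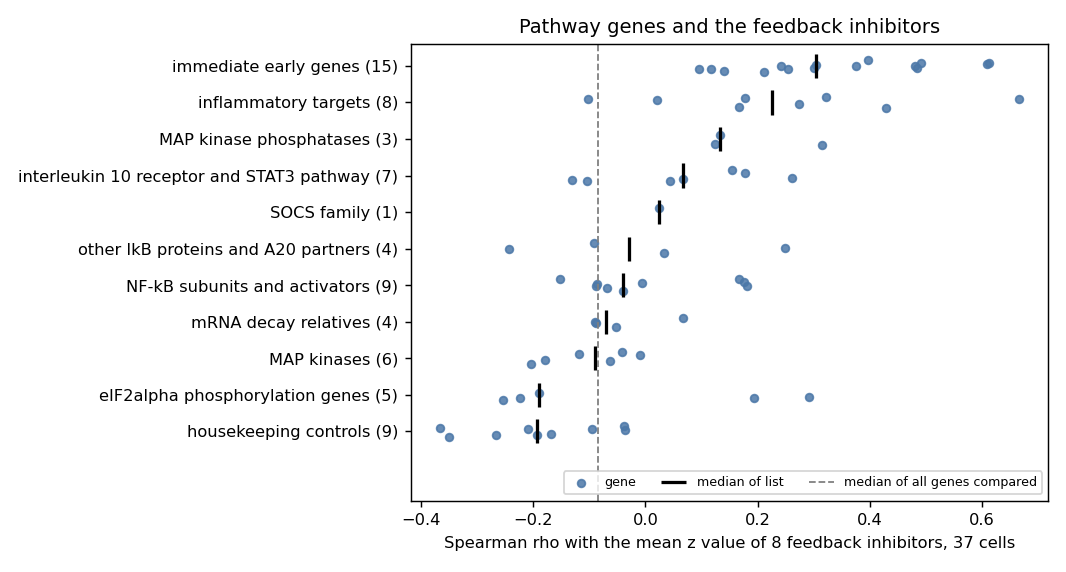
Spearman rho over 37 cells of each pathway gene detected in at least 10 cells with the mean z value of 8 feedback inhibitors, with the number of genes beside each list's name. Points are genes, black bars the medians of the lists and the dashed line the median of all genes compared, -0.08. Immediate early genes (0.30) and inflammatory targets (0.23) have the highest medians and housekeeping controls (-0.19) the lowest.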

How the data were processed

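Expression was measured in 37 single cells of 1 group. The authors deposited FPKM for all cells in 1 table. The submitters' processing notes name STAR, Cuffnorm and mouse build mm9, without roles. Their versions, and the annotation, were not stated in what was read here. The deposited FPKM are not counts, depth in fragments is unknown, and a 0 can be a failed estimate, so no count test was used. Upstream sequences come from RefSeq, build GRCm38.p6, and were not joined to the table by position.

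Analysis used Python 3.11.15, numpy 2.4.6, pandas 2.3.3 and scipy 1.17.1. Detection meant 1 FPKM; logs used log2(FPKM + 1); genes were compared by Spearman rho when detected in at least 10 cells. The value of 1 fragment was the commonest ratio of low values between cells, solved over 640 of 666 pairs of cells. All 148 genes of 11 pathway lists and 65 of 70 marker symbols were matched. Named genes were all members, the 3 most alike genes per member, all inflammatory targets and, per pathway list, up to 4 genes detected in most cells, the 2 with the highest rho and the 1 with the lowest; others, such as Rela, Ikbkg, Ddit3, Tnip3, Il10ra and the rarer SOCS and MAP kinase phosphatase genes, were named after their values were seen. Members and lists were chosen with earlier results of these data known. The planned comparison of protein sequences was not made. Correlation code was tested on simulated data. Doublets were not called, since that needs counts.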

Additional observations from a re-analysis of the deposited data

How the results depend on the processing

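No summary value reversed, although single pairs changed sign in some alternatives (Nfkbia with Ppp1r15a was at -0.12 in cells 20 to 36). The 6 inhibitors detected in at least 19 cells became 5 to 7, the median of 6 per cell became 5 to 7, and of the 8 steps in the order of levels 7 or 8 overlapped. Of 45 alternative shares of cells for single genes, 34 stayed within the 95% interval and 11 left it, all of them on changing the detection limit. The median rho of the 36 pairs, 0.28 (0.25 to 0.31 on leaving out any 1 cell), became 0.22 and 0.14 as Pearson r on log2(FPKM + 1) and log2(FPKM + 10), 0.24 in odd-numbered cells, 0.34 in cells 0 to 19, 0.14 in cells 20 to 36 and 0.056 within cells where both genes were detected, which 26 of the pairs allowed (0.28 for those 26 over all cells). The 3 pairs at 0.5 or more became 5 in even-numbered cells, 8 in cells 0 to 19 and 1 in cells 20 to 36. Of the 24 most alike genes, 12 were kept with Pearson r. Joint detection of Il10 and Socs3 moved from 5 cells to 9 at 0.1 FPKM and 3 at 5 FPKM. The 35 pathway genes in at least 19 cells became 60, 20 and 17 with detection at 0.1, 5 and 10 FPKM. The causes of these shifts were not tested. Alternatives for the number per cell, the order and the pathway genes were chosen after seeing the data. No paired analysis was possible because all cells form 1 group.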
